A study of Mus musculus with 9 samples.

Results

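The genes described are 34 named markers of T cells and of cytotoxic lymphocytes, of 34142 gene rows in a count table of whole mouse corneas. They were listed by name, with earlier results of these data known, and all 34 had a row. The samples were 3 wild-type libraries (WT), 2 libraries of untreated Aire knockout mice (KO) and 4 libraries of Aire knockout mice given PBS on the eye (KO + PBS). PBS is a salt solution, used here as topical lubrication. The series design also names a Lacripep group, not analysed here. The WT and KO samples are titled 5 wk and the KO + PBS samples 24 hr, whereas the design text gives an age of 6 wk and a treatment of 7 days. The sources used here do not settle which applies, and they do not give the Aire allele, the strain, the sex or whether mice were pooled. The labels call the replicates biological, and p-values measure only the spread between these samples.

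A T cell recognises antigen with a receptor whose alpha and beta chains pair with the CD3 proteins and the zeta chain. The coreceptors CD4 and CD8 bind the antigen-presenting molecule and bring the kinase Lck, which sets off Zap70 and the adaptor Lat. Cytotoxic T cells and natural killer cells kill with granzymes and perforin, and type 1 cells secrete interferon gamma. Aire lets the thymus display tissue proteins to developing T cells, and mice without it develop autoimmunity, with lymphocytes entering the lacrimal gland and the eye. A healthy cornea has few T cells.

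The knockout corneas held more RNA of these genes than the wild-type corneas. Over the 34 members together, WT replicates 1 to 3 held 317, 938 and 363 counts, KO replicates 1 and 2 held 2143 and 2768, and KO + PBS replicates 1 to 4 held 518, 1384, 1086 and 5728. Levels are counts relative to library size (CPM), scaled here by factors of the trimmed mean of M values (TMM). They summed to 10.05, 11.5 and 9.81 in WT, 103 and 57.0 in KO, with 19.6, 39.3, 30.4 and 187 in KO + PBS. The WT libraries lay close together, both KO libraries were above them, and KO + PBS replicate 4 was above all the others. The mean sum was 10.4 ± 0.905 CPM (SD, n = 3) in WT, 79.9 ± 32.3 (SD, n = 2) in KO and 69.1 ± 79.2 (SD, n = 4) in KO + PBS. In whole tissue, fewer cells of a type and less RNA per cell cannot be told apart.

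**Figure D1:**
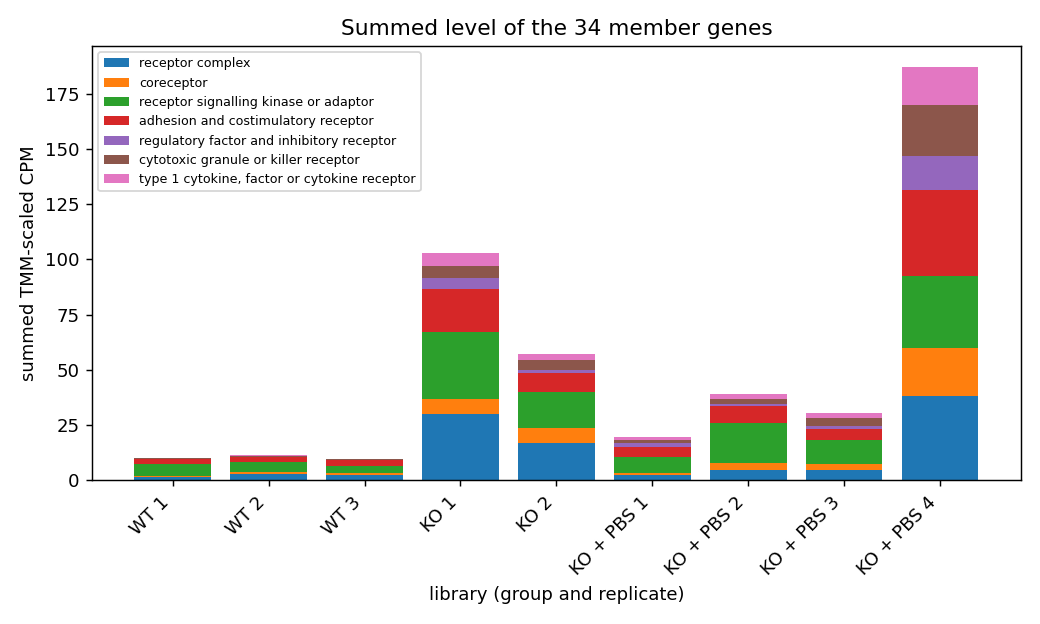
Summed TMM-scaled CPM of the 34 members (vertical axis) in each of the 9 libraries (horizontal axis), stacked by the role of the genes. The 3 WT bars end between 9.81 and 11.5, the KO bars at 103 and 57.0, and KO + PBS replicate 4 at 187.

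Some facts of the libraries bear on all that follows. Totals ran from 22944576 to 104518572 counts. The 5 untreated libraries had 0 mitochondrial counts, where KO + PBS had 0.797 to 6.13%. Processed pseudogenes, which are intronless gene copies, took 16.4 to 20.5% of counts without treatment and 0.204 to 0.261% in KO + PBS. The KO + PBS libraries were thus another kind of counts, and PBS treatment and kind of library cannot be told apart. KO was therefore compared with WT within the 5 untreated libraries. The counts over all members and over the other lists stand beside those of 1 model for all 9 libraries. KO + PBS replicate 4 stood apart from its group for these genes, so the comparisons that use it are also given without it. The corneal genes Krt12 and Kera, for a keratin of the epithelium and a proteoglycan of the stroma, were counted in every library, with at least 132017 and 507 counts. Their levels differed widely between the groups. Kera was at 438 to 502 CPM in WT, 24.3 and 23.1 in KO, with 40.6 to 185 in KO + PBS. Krt12 was at 27779 to 33161.5 CPM in WT, 22424.8 and 38276.2 in KO, with 3748 to 6015 in KO + PBS. Aire itself had 4, 16 and 3 counts in WT, 0 and 3 in KO with 7, 9, 7 and 2 in KO + PBS, too few to check the genotype.

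In KO against WT, 26 of the 27 members tested rose and 0 fell (edgeR quasi-likelihood test, Benjamini-Hochberg adjusted p under 0.05). Of all 18006 genes tested, 11.5% rose and 8.99% fell. The median log2 fold change was 3.41 over the tested members and -0.02 over all genes. Of the 27, 16 passed the filter on low counts only through the KO libraries, so they had to differ. All 11 that passed on the WT libraries alone rose, where 10.9% of 17351 such genes did. With no filter, 27 of the 34 rose against 7.01% of genes. The count fell to 1 of 32, Prkcq, in the model of all 9 libraries, where 0.963% of genes rose and 23 members had an unadjusted p under 0.05. Leaving out WT replicate 1, 2 or 3 gave 18, 15 or 14 members, where 4.97, 3.96 or 3.92% of genes rose. Leaving out KO replicate 1 or 2 gave 23 or 27, where 15.9 or 15% did, with the 1 KO library left assumed to vary like the WT libraries. With each of the 5 libraries left out in turn, 13 of the 26 were called every time: Cd2, Cd3d, Cd3e, Cd3g, Cd4, Cd6, Foxp3, Gzmb, Lck, Nkg7, Prkcq, Trac and Trbc2. Of those 13, Cd2, Cd3d, Cd3e, Cd6, Foxp3, Gzmb and Nkg7 had passed the filter only through the KO libraries, so they had to differ. The rest had passed on the WT libraries alone. Without KO replicate 1 the fold change of 8 members, Cd247, Trbc1, Zap70, Prkcq, Cd6, Icos, Foxp3 and Ctla4, moved by more than 1.5 times. Without WT replicate 2 those of Cd3e, Cd8a, Cd8b1, Cd6, Klrd1 and Nkg7 did, to larger values.

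Both KO libraries were above all WT libraries for 31 of the 34 members, and 25.2% of genes showed this separation. The 3 exceptions were Tigit, Prf1 and Tbx21. KO replicate 1 was above KO replicate 2 for 31 members.

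**Figure D2:**
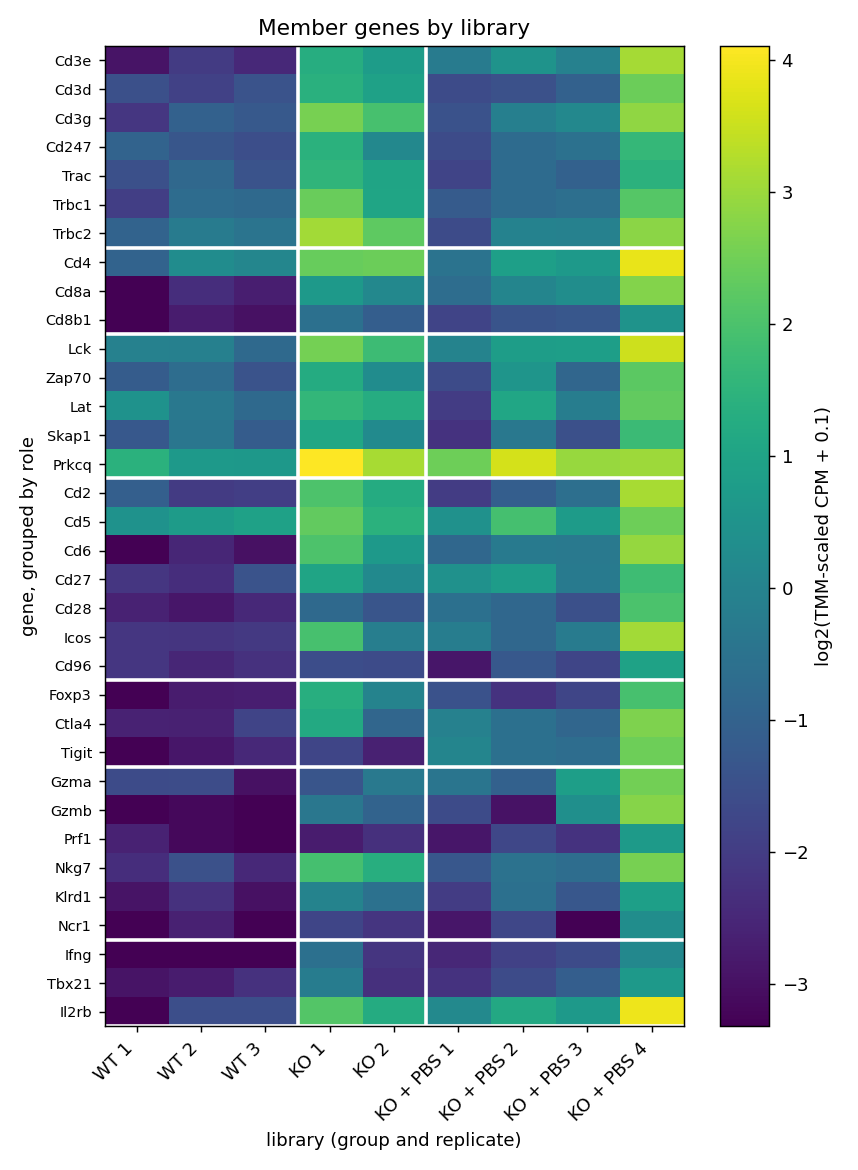
Level of each member (rows, grouped by role, parted by white lines) in each of the 9 libraries (columns), as log2 of TMM-scaled CPM plus 0.1. WT columns are dark nearly throughout, the KO columns are brighter for 31 members, and KO + PBS replicate 4 is the brightest KO + PBS column in 33 of 34 rows.

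All 7 genes of the receptor complex rose in KO against WT, with a median log2 fold change of 3.26. This and the later counts by role in KO against WT are from the 5 untreated libraries, where 11.5% of all genes rose. Of all members, the model of all 9 libraries called only Prkcq. Cd3e, which encodes the CD3 epsilon chain, had 1, 12 and 3 counts in WT, 50 and 79 in KO, with 20, 46, 31 and 262 in KO + PBS. The untreated groups did not overlap, and the deepest WT library held fewer counts than the shallower KO library. The level was 0.0866 ± 0.0578 CPM (SD, n = 3) in WT and 2.01 ± 0.545 (SD, n = 2) in KO. The log2 fold change was 4.32 ± 0.54 (SE; edgeR adjusted p = 0.00361). Cd3g, for the gamma chain, had 4, 32 and 12 counts in WT, 124 and 183 in KO, with 7, 29, 36 and 220 in KO + PBS. KO + PBS replicate 1 lay within the range of WT. The log2 fold change of Cd3g in KO was 4.02 ± 0.44 (edgeR adjusted p = 0.00239). Cd3d, for the delta chain, had 8, 14 and 10 counts in WT, 53 and 88 in KO, with 6, 9, 14 and 163 in KO + PBS, and rose by a log2 fold change of 3.26 ± 0.40 in KO. The first 3 KO + PBS libraries were near WT for this gene.

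Cd247 encodes the zeta chain, which carries the signal into the cell, and had 13, 24 and 9 counts in WT, 54 and 49 in KO, with 6, 18, 21 and 91 in KO + PBS. Its log2 fold change in KO was 2.49 ± 0.51. Exons of other genes cover 3213 bases of its exons, most of them on the opposite strand in Pou2f1, and no source used here gives the strand setting of the counting, so its counts are uncertain. Cd3g, Cd3d and Cd3e lie side by side on chromosome 9. The starts of Cd3g and Cd3d, read in opposite directions, are 1355 bases apart, and those of Cd3d and Cd3e 27841 (GENCODE M21, GRCm38).

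The promoters of Cd3d (chr9:44981536-44981835, plus strand), Cd3e (chr9:45009562-45009861, minus strand) and Gzmb (chr14:56262285-56262584, minus strand) are shown as examples from the members that rose in KO. Each is 300 bases from RefSeq (GRCm38.p6), with 2 motifs known from lymphocyte genes in capitals, the Ets core AGGAAG or its reverse complement CTTCCT and the Runx core TGTGGT or its reverse complement ACCACA.
Cd3d: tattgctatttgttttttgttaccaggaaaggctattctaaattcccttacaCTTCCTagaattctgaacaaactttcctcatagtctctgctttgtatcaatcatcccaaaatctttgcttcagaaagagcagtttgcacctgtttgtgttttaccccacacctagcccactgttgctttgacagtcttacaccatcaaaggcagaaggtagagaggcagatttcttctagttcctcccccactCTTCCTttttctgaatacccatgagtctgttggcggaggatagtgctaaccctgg
Cd3e: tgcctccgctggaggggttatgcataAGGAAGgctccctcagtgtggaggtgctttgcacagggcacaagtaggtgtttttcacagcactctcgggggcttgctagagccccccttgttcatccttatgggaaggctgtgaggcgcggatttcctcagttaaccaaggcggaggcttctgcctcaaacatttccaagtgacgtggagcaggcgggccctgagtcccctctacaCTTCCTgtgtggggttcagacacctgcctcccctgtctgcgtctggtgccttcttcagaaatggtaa
Gzmb: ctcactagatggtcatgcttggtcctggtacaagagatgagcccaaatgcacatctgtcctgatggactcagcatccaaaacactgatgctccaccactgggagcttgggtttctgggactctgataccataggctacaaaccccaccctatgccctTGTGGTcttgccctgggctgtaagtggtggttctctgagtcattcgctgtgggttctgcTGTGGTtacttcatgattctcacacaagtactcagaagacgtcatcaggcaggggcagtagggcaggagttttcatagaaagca
The Cd3d and Cd3e windows each hold 2 Ets matches, and the Gzmb window holds 2 Runx matches. The promoters of Cd3g, Cd8a and Cd27, which also rose in KO, hold 0 matches of either motif. On both strands, Ets cores were in 15 of the 27 promoters found for 22 members, or 55.6%, and in 35.4% of 32851 promoters. Runx cores were in 11 of the 27, or 40.7%, against 16.8%, and TATAAA was in 4, or 14.8%, against 13.6%. These are matches of letters, not measured binding, and no test was made.

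The constant genes of the receptor chains rose as well. Trac, for the alpha chain, had 8, 38 and 10 counts in WT, 59 and 93 in KO, with 5, 18, 14 and 80 in KO + PBS. Trbc2, 1 of the 2 beta constant genes, had 13, 62 and 23 counts in WT, 174 and 229 in KO, with 6, 31, 31 and 212 in KO + PBS. In scaled CPM both KO libraries were above all others for Trac, Trbc1 and Trbc2, except that KO + PBS replicate 4 passed KO replicate 2. The log2 fold change in KO was 2.78 ± 0.41 for Trac, 3.14 ± 0.58 for Trbc1 and 3.41 ± 0.36 for Trbc2 (edgeR adjusted p = 0.00223 for the last). Trbc1 had 5, 42 and 18 counts in WT, 109 and 96 in KO, with 9, 18, 20 and 134 in KO + PBS.

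Trbc1 (chr6:41538218-41539881) and Trbc2 (chr6:41546730-41548352) are near copies on the plus strand of GRCm38, and reads from one can be counted for the other. Their coding sequences of 521 bases are 95.6% identical, with 23 differences, and the first 259 bases have none. The stretch from base 459 to base 518 holds 11 of the differences, in capitals.
Trbc1: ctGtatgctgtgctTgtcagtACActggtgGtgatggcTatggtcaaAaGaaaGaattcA
Trbc2: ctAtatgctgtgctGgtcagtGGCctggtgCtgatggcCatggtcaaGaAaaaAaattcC
Trbc1 made up 27.8 to 43.9% of their joint counts without treatment and 36.7 to 60% in KO + PBS, shares that depend on how such reads were assigned.

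The 3 coreceptor genes rose in KO against WT. Cd4, which marks helper T cells and is also made by some macrophages and dendritic cells, had 13, 91 and 36 counts in WT, 106 and 261 in KO, with 16, 61, 54 and 438 in KO + PBS. The level in KO was 5.08 and 5.37 CPM, and no WT library passed 1.11. The log2 fold change was 2.62 ± 0.39 (edgeR adjusted p = 0.00625). Cd8a, for the alpha chain of CD8 on cytotoxic T cells, had 0, 8 and 2 counts in WT, 32 and 49 in KO, with 14, 33, 41 and 198 in KO + PBS. The count of 0 in WT replicate 1 allows up to 0.0951 CPM (3 counts). All KO + PBS libraries were above all WT libraries in CPM, and the log2 fold change in KO was 4.31 ± 0.72 (edgeR adjusted p = 0.00865). Cd8b1, for the beta chain, had at most 4 counts in a WT library, 12 and 18 in KO, with 5 to 40 in KO + PBS. It rose by 3.77 ± 0.80 on the log2 scale in KO.

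The 5 genes of receptor signalling had the smallest median change of the roles with more than 1 tested member, 2.10 on the log2 scale, and all 5 rose in KO. Lck, the kinase bound to the coreceptors, had 27, 69 and 18 counts in WT, 120 and 160 in KO, with 24, 58, 61 and 352 in KO + PBS. Both KO libraries lay above WT, at 5.75 and 3.29 CPM against 0.487 to 0.856. Its log2 fold change was 2.62 ± 0.37. Zap70, the kinase recruited to the zeta chain, had a log2 fold change of 2.10 ± 0.47, the adaptor Lat 1.70 ± 0.43 and the adaptor Skap1 1.76 ± 0.48. Lat had 40, 56 and 18 counts in WT, 61 and 112 in KO, with 4, 71, 28 and 151 in KO + PBS, so that KO + PBS replicate 1 was below every WT library.

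Prkcq encodes protein kinase C theta, which acts below the T cell receptor and is also abundant in skeletal muscle. It had 82, 124 and 54 counts in WT, 358 and 419 in KO, with 144, 437, 274 and 246 in KO + PBS. Its pattern differed from that of the other members, since KO + PBS replicate 4 was not its highest KO + PBS library. In CPM it was 1.46 to 2.60 in WT, 17.2 and 8.63 in KO, with 5.45, 12.4, 7.66 and 8.04 in KO + PBS, with no overlap between WT and either knockout group. The log2 fold change was 2.81 ± 0.38 in KO (edgeR adjusted p = 0.00517) and 2.18 ± 0.39 in KO + PBS against WT (edgeR adjusted p = 0.00127). It was also the only member called higher in KO by the model of all 9 libraries, at an adjusted p of 0.0263.

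**Figure D3:**
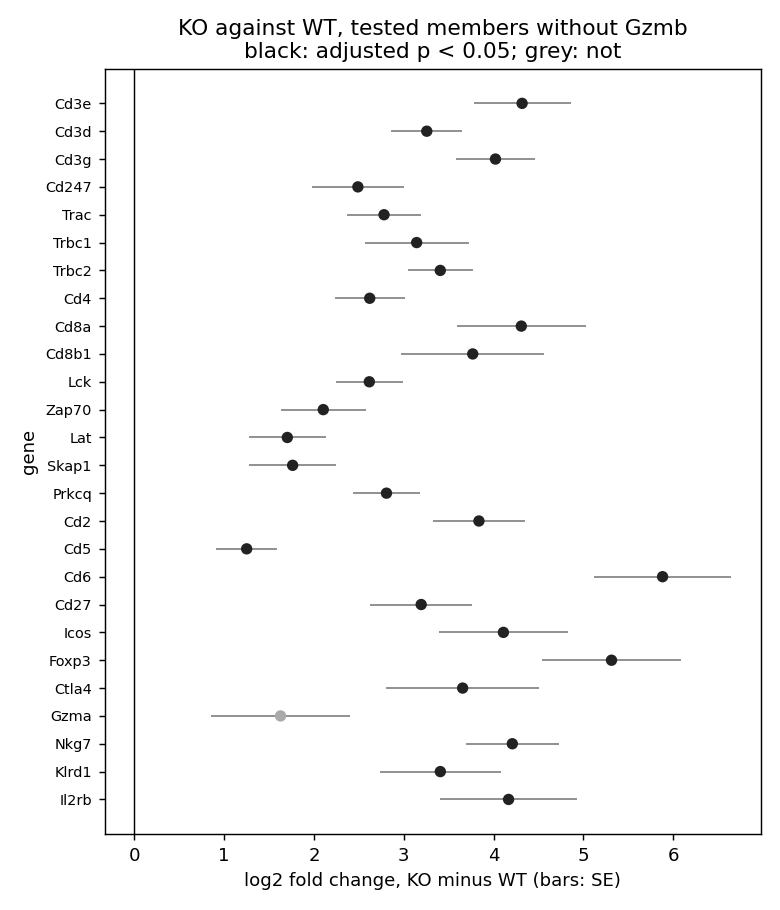
Log2 fold change of KO against WT (horizontal axis) for the tested members other than Gzmb (vertical axis), with bars of 1 SE, from the fit to the 5 untreated libraries. Every point lies to the right of 0; the grey point is Gzma at 1.63, and Cd6 is farthest right at 5.88.

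Of 7 adhesion and costimulatory receptors, 5 were tested in KO against WT and all 5 rose. Cd6, a receptor at the contact between T cell and antigen-presenting cell, had 0, 6 and 1 counts in WT, 83 and 74 in KO, with 12, 26, 25 and 231 in KO + PBS. Its log2 fold change in KO was 5.88 ± 0.76 (edgeR adjusted p = 0.00413), from a WT level of only 0.0335 ± 0.0372 CPM (SD, n = 3). Cd5, which damps receptor signals and is also on some B cells, had 40, 129 and 67 counts in WT, 102 and 125 in KO, with 33, 130, 57 and 167 in KO + PBS. It had the smallest called change, 1.25 ± 0.34 (edgeR adjusted p = 0.0437), and was among the more abundant members in WT. Upper-quartile scaling ended the calls of Cd5 and Skap1.

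Cd2, a T and natural killer cell adhesion molecule, had 12, 12 and 6 counts in WT, 84 and 110 in KO, with 4, 13, 20 and 267 in KO + PBS. Its rise in KO was 3.84 ± 0.51 on the log2 scale. Icos, a costimulator of activated T cells, had 4, 10 and 5 counts in WT, 79 and 39 in KO, with 21, 16, 27 and 254 in KO + PBS. KO replicate 1 was well above KO replicate 2 for Icos, at 3.79 against 0.803 CPM. Icos rose by 4.11 ± 0.71 on the log2 scale, or 2.62 without KO replicate 1, and its call was lost without any 1 of the WT libraries. Cd27, of the tumour necrosis factor receptor family, had 4, 8 and 10 counts in WT, 40 and 51 in KO, with 33, 57, 26 and 104 in KO + PBS, and rose by 3.19 ± 0.57 on the log2 scale. Cd28 and Cd96 did not pass the filter in the untreated libraries. Cd28, the main costimulatory receptor, had 2, 3 and 3 counts in WT, 10 and 14 in KO, with 15, 16, 9 and 119 in KO + PBS. Cd96, a receptor on T and natural killer cells, had 4 to 6 counts in WT, 5 and 11 in KO, with 1, 11, 7 and 57 in KO + PBS.

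Foxp3, the transcription factor of regulatory T cells, had 0, 4 and 2 counts in WT, 51 and 44 in KO, with 7, 4, 7 and 116 in KO + PBS. It was at 2.44 and 0.906 CPM in KO and at most 0.0541 in WT, and rose by 5.31 ± 0.77 on the log2 scale (edgeR adjusted p = 0.00594). Exons of other genes cover 2082 bases of its exons, so its counts carry the same doubt as those of Cd247. Ctla4, an inhibitory receptor of regulatory and activated T cells, had 2, 5 and 7 counts in WT, 46 and 22 in KO, with 23, 20, 16 and 190 in KO + PBS. Ctla4 rose in KO by 3.66 ± 0.86 on the log2 scale (edgeR adjusted p = 0.0273). That call was lost when any 1 of the WT libraries was left out, and without KO replicate 1, where the log2 fold change was 2.15 (edgeR adjusted p = 0.0766). Tigit, an inhibitory receptor of T and natural killer cells, behaved differently. It had 0, 3 and 3 counts in WT, 4 and 3 in KO, with 25, 20, 19 and 165 in KO + PBS, so the untreated groups overlapped and every KO + PBS library was above both.

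Of the 6 cytotoxic genes, 3 of 4 tested rose in KO against WT. Nkg7, a granule membrane protein, had 3, 21 and 3 counts in WT, 76 and 117 in KO, with 8, 21, 19 and 181 in KO + PBS, a log2 fold change of 4.21 ± 0.52 in KO (edgeR adjusted p = 0.00336). Gzmb, for granzyme B, had 0, 1 and 0 counts in WT, 14 and 20 in KO, with 6, 1, 43 and 202 in KO + PBS. Over pooled counts KO was 73.6 times WT, with an exact 95% interval of 12.3 to 2990 that covers counting error only. Klrd1, the CD94 chain of natural killer receptors, had 1, 9 and 1 counts in WT, 19 and 28 in KO, with 4, 20, 11 and 53 in KO + PBS. It rose in KO by 3.41 ± 0.67 on the log2 scale.

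Gzma, for granzyme A, did not pass the test in KO against WT, at a log2 fold change of 1.63 ± 0.77 (edgeR adjusted p = 0.181). It had 7, 19 and 1 counts in WT, 6 and 34 in KO, with 17, 14, 60 and 175 in KO + PBS. KO replicate 1, at 0.288 CPM, lay only narrowly above the highest WT library at 0.233, and KO replicate 2 was at 0.700. Prf1, for the pore protein perforin, had 2, 1 and 0 counts in WT, 1 and 5 in KO, with 1, 7, 4 and 48 in KO + PBS. Over pooled counts its KO level was 4.33 times WT, with an interval of 0.924 to 26.7 that includes no difference. Ncr1, the NKp46 receptor of natural killer cells, had 0, 5 and 0 counts in WT, 4 and 6 in KO, with 1, 7, 0 and 35 in KO + PBS. Perforin and NKp46 thus stayed under 10 counts in every untreated library.

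Among the type 1 genes, Ifng, for interferon gamma, had 0 counts in each WT library, 12 and 6 in KO, with 2, 6, 8 and 31 in KO + PBS. Against 3 counts in each WT library, the limit that a count of 0 allows, KO was at least 4.92-fold higher and KO + PBS at least 5.23-fold higher. Without KO replicate 1 the first bound was 1.74, and without KO + PBS replicate 4 the second was 2.21. Another annotated gene overlaps 336 bases of its exons. Tbx21, the T-bet factor that directs the type 1 programme, had 1, 4 and 4 counts in WT, 16 and 5 in KO, with 3, 8, 13 and 47 in KO + PBS. Il2rb, the beta chain of the receptors for interleukins 2 and 15, had 0, 20 and 9 counts in WT, 88 and 111 in KO, with 27, 76, 54 and 460 in KO + PBS. Il2rb was the only type 1 gene tested in KO against WT, and its log2 fold change was 4.17 ± 0.76 (edgeR adjusted p = 0.013).

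As sums of scaled CPM, the roles differed in how far KO lay above WT. The ratio of group means was 17.9 for the type 1 genes, 17.6 for the regulatory genes, 12.3 for the cytotoxic genes and 10.5 for the receptor complex. It was 7.67 for the coreceptors, 6.17 for the adhesion and costimulatory receptors and 5.52 for the signalling genes. The order changed with any 1 library left out. Without KO replicate 1 the ratios were 11.1 for the type 1, 10.5 for the cytotoxic and 7.97 for the regulatory genes. They were then 7.54 for the receptor complex, 7.43 for the coreceptors, 3.89 for the signalling genes and 3.84 for the adhesion and costimulatory receptors. Without KO replicate 2, WT replicate 1 or WT replicate 3 the regulatory genes passed the type 1 genes. Without WT replicate 2 the cytotoxic genes passed the regulatory genes. The regulatory and type 1 sums rest on 2 to 12 and 1 to 24 counts per WT library. Per kilobase of exon, the most abundant members in WT were Trbc2 at 0.864 ± 0.253, Trbc1 at 0.516 ± 0.264 and Trac at 0.353 ± 0.126 CPM per kb (SD, n = 3). Cd5, Lat and Prkcq followed, each within the spread of its neighbours.

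The other genes of T cell biology, from lists chosen with earlier results of these data known, moved less uniformly in KO against WT. Of 19 tested genes of receptor signalling, 7 rose and 1 fell. Ubash3a and Sit1, regulators of receptor signalling, rose by 2.52 ± 0.46 and 3.48 ± 0.66 on the log2 scale, and the kinase gene Fyn, which many cell types use, was the one that fell. Of 19 lineage factors and homing receptors 8 rose, among them the chemokine receptors Cxcr3 (2.92 ± 0.42) and Ccr7 (5.18 ± 0.75) and the shared cytokine receptor chain Il2rg (2.26 ± 0.25). Of 9 effector molecules and killer receptors 4 rose, led by the chemokine Ccl5 (4.57 ± 0.50), the protease Ctsw (3.38 ± 0.50) and the killer receptor Klrk1 (3.78 ± 0.64), and Gzmc and Gzmm fell. The gamma constant genes Tcrg-C1 and Tcrg-C2 rose by 2.39 ± 0.65 and 2.85 ± 0.67, the only 2 calls of 4 tested genes of the gamma delta receptor list. Of 7 further checkpoint and costimulatory receptors 5 rose, with Pdcd1, for PD-1, at 4.34 ± 0.47 and Havcr2, for TIM-3, at 2.77 ± 0.28.

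The interferon gamma pathway list had 11 of 12 tested genes higher in KO than in WT. The transcription factor gene Irf1 rose by 1.32 ± 0.13 on the log2 scale, and the receptor chain Ifngr2 by 0.92 ± 0.12. Its chemokine genes had fewer counts. Cxcl9, which attracts T cells through CXCR3, had 5, 38 and 3 counts in WT, 413 and 341 in KO, with 48, 280, 162 and 4138 in KO + PBS. Over these 6 lists, 37 of 70 tested genes rose and 3 fell, and DESeq2 called 43 and 3. The edgeR model of all 9 libraries called 0 of their 81 tested genes, 32 of which had an unadjusted p under 0.05.

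Markers of other cells followed the members only in part. The summed B cell list was 7.78 to 8.84 CPM in WT, 15.3 and 21.8 in KO, with 3.07, 12.5, 4.81 and 131 in KO + PBS, and 4 of its 6 tested genes rose in KO. The pan-leukocyte list summed to 46.9 to 58.4 CPM in WT, 145 and 106 in KO, with 19.7, 53.7, 32.7 and 243 in KO + PBS, with 4 of 6 tested genes higher in KO. Both sums thus had KO + PBS replicate 4 highest and KO above WT, as the members did. In KO + PBS replicates 1 and 3, however, both were below every WT library, where the members' sum was above every WT library. The B cell sum was higher in KO replicate 2, and that of the members in KO replicate 1.

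The neutrophil list summed to 6.09 to 13.6 CPM in WT, 123 and 27.7 in KO, with 0.568, 1.36, 1.03 and 7.59 in KO + PBS, and 4 of 6 tested genes rose in KO. The macrophage and monocyte list, at 394 to 422 CPM in WT, was 701 and 492 in KO, with 264, 273, 303 and 768 in KO + PBS, with 2 of 12 higher and 1 lower in KO. The dendritic cell list was 3.49 to 4.72 CPM in WT, 10.7 and 6.01 in KO, with 3.26, 8.43, 5.48 and 29.3 in KO + PBS, with 1 of 6 higher. In KO, 2 of 5 mast cell genes fell, and 1 of 5 did in the model of all 9 libraries. Of all genes 11.5% rose and 8.99% fell, so the shares of the macrophage and dendritic cell lists were near those of all genes. The edgeR model of all 9 libraries called 0 genes of the first 5 of these lists, with an unadjusted p under 0.05 for 1 B cell, 0 pan-leukocyte, 5 neutrophil, 4 macrophage and 2 dendritic cell genes.

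**Figure D4:**
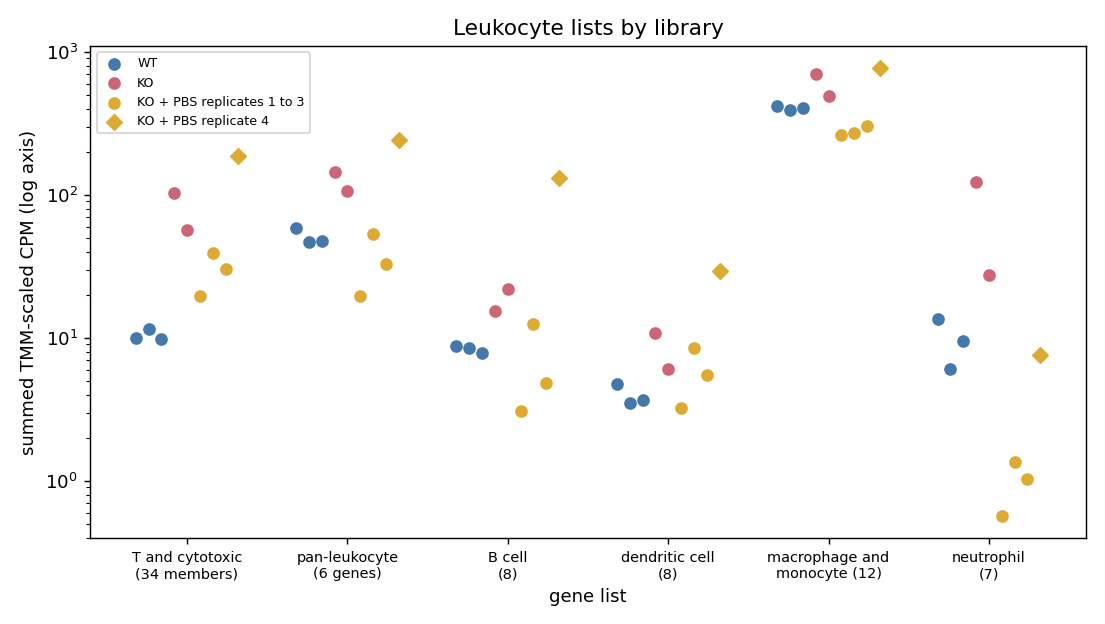
Summed TMM-scaled CPM on a log axis (vertical) of the members and 5 leukocyte lists (horizontal), 1 point per library. KO + PBS replicate 4, drawn as a diamond, is the highest KO + PBS library in all 6, at 187 for the members and 131 for the B cell list, while the neutrophil list is highest in KO.

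Tissue next to the cornea was also represented unevenly. Summed, lacrimal and meibomian gland genes reached 40.8 to 79.3 CPM in WT, 194 and 93.7 in KO, with 55.8 to 102 in KO + PBS, with 2 of 7 tested genes higher in KO, Lpo and Bhlha15. Lpo, for the lactoperoxidase of tears, had 38, 56 and 47 counts in WT, 182 and 2368 in KO, with 1 to 27 in KO + PBS. Dcpp1 of the same list went the other way between the KO libraries, with 1399 counts in replicate 1 and 10 in replicate 2. It had 312, 12 and 0 counts in WT. Among the conjunctiva genes 1 of 6, Krt8, fell in KO, and their sums were 1340 to 1894 CPM in WT, 1912 and 2056 in KO, with 591 to 1601 in KO + PBS. Keratocyte genes fell in KO for 5 of 6, with a median log2 fold change of -3.72 over the list. Of 6 corneal epithelium genes 1 rose, and of 6 blood vessel genes 2 rose and 1 fell. The edgeR model of all 9 libraries called 5 keratocyte genes lower and 1 corneal epithelium gene higher. It called 0 of the gland, conjunctiva and blood vessel genes. The part of these cells and tissues in the result of the members was not tested.

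In KO + PBS against KO, 1 of 32 tested members rose and 0 fell, where 23.6% of 18489 genes rose and 29.7% fell. The median log2 fold change was -0.14 over the members and -0.02 over all genes. The one call was Tigit, at 0.127 ± 0.0919 CPM (SD, n = 2) in KO and 1.86 ± 2.36 (SD, n = 4) in KO + PBS, a log2 fold change of 3.98 ± 1.38 (edgeR adjusted p = 0.0359). The call was lost when WT replicate 2 or either KO library was left out, and in a fit to these 2 groups alone. Tigit passed the filter only through the KO + PBS libraries, so it had to differ. All 4 KO + PBS libraries were above both KO libraries for Tigit, at 0.531 to 5.40 against 0.0618 and 0.192 CPM. Of all genes tested, 26.9% showed this separation.

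This comparison depended on KO + PBS replicate 4. Without it, 13 members were lower in KO + PBS than in KO and 1 was higher, against 29.4% of genes lower and 22.5% higher, and the median became -1.35. Those 13 were Cd3d, Cd3g, Cd247, Cd4, Trac, Trbc1, Trbc2, Lck, Cd2, Cd6, Foxp3, Skap1 and Nkg7. For 19 of the 34 members, KO + PBS replicates 1 to 3 were all below both KO libraries. The share of all genes with this order is at least 34%, since 34% of 18489 had all 4 KO + PBS libraries below both. The ratio of the summed CPM of KO + PBS to KO was 0.866 with all 4 libraries and 0.373 without replicate 4. With all 4 libraries it was 1.49 for CPM without scaling factors, so the direction between these groups then changed with the scaling. That 1.49 rests on replicate 4, at 250 CPM without scaling factors. Replicates 1 to 3, at 22.5, 60.4 and 40.1, were below the KO mean of 62.5. The other T cell lists gave 3 higher and 2 lower of 21 receptor signalling genes, 1 and 1 of 22 lineage and homing genes, 2 and 1 of 13 effector genes, and 0 and 1 of 9 checkpoint genes. Of 4 gamma delta genes 0 were called by edgeR or DESeq2, or had an unadjusted p under 0.05, and the interferon gamma pathway had 1 higher and 4 lower of 12.

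Against WT, KO + PBS had 20 of 32 tested members higher and 0 lower, where 27.1% of 18489 genes rose and 30% fell. The median log2 fold change was 3.40, or 3.24 with Ifng at its bound, against 0.05 over all genes, and the members' median was 2.05 without KO + PBS replicate 4. Only 7 of the 32 passed the filter on the WT libraries alone, and 2 of these rose, Lck and Prkcq, a share near the 25% of all such genes. All KO + PBS libraries were above all WT libraries for 19 of the 34 members, against 26.7% of genes. Without KO + PBS replicate 4 the count was 15, where 25.7% of genes rose, and the summed CPM was 2.85 times WT in place of 6.62. The count was 12, 11 or 12 without WT replicate 1, 2 or 3, where 21.7, 20.9 or 20.8% of genes rose.

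By role, the calls covered 2 of 7 receptor complex genes, 2 of 3 coreceptors, 2 of 5 signalling genes, 4 of 7 adhesion and costimulatory receptors, and all tested regulatory, cytotoxic and type 1 genes, 3, 4 and 3 in number. Those regulatory, cytotoxic and type 1 genes all passed the filter only through the knockout libraries, so they had to differ. Without KO + PBS replicate 4 the calls of Cd3g, Lck, Foxp3, Ifng and Tbx21 were lost. Cd8a was 2.27 ± 2.81 CPM (SD, n = 4) in KO + PBS, a log2 fold change of 5.20 ± 1.17 against WT (edgeR adjusted p = 0.00451). Cd3e had 4.88 ± 1.11, Cd6 5.73 ± 1.40, Cd28 4.42 ± 1.14 and Tigit 5.43 ± 1.25. Without replicate 4 these 5 were still called, at 3.83 for Cd8a, 3.33 for Cd3e, 3.85 for Cd6, 2.82 for Cd28 and 3.99 for Tigit. All 5 also passed the filter only through the knockout libraries, so they too had to differ. Trac, at 1.46 ± 0.85, and Trbc2, at 1.88 ± 1.00, did not pass (edgeR adjusted p = 0.169 and 0.138). KO against WT and KO + PBS against WT share the WT libraries, so their calls are not independent.

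Gzmb had 252 pooled counts in KO + PBS against 1 in WT, a ratio of 296 with an exact 95% interval of 52.6 to 11728, but 202 of the 252 came from replicate 4. Prf1 was 23.5 times WT, with an interval of 7.66 to 117, and 48 of its 60 KO + PBS counts came from replicate 4. The remaining lists of T cell biology gave, against WT, 5 of 21 receptor signalling genes higher, 11 higher and 1 lower of 22 lineage and homing genes, 5 higher and 1 lower of 13 effector genes, 4 of 9 checkpoint genes higher, 0 of 4 gamma delta genes and 7 of 12 interferon gamma pathway genes higher. Since 27.1% of all genes rose and 30% fell here, the share of the receptor signalling list was near that of all genes.

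KO + PBS replicate 4 was the highest library of its group for 33 of the 34 members and the highest of all 9 for 30. Over all genes tested, it was the highest of its group for 14.8%. Its level was 1.48 to 15.6 times that of the next KO + PBS library over the 33, with a median of 5.86 over all 34. Trac, Trbc1 and Trbc2 were highest in KO replicate 1, as was Prkcq. KO + PBS replicate 1 was the lowest of its group for 25 members.

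The proportions among the members also differed between the kinds of library. Relative to Cd3e in the same library, Trbc2 had 2.90 to 13.0 counts per count in the 5 untreated libraries, WT included, and 0.300 to 1.00 in the 4 KO + PBS libraries. Trac was at 1.18 to 8 against 0.250 to 0.452, and Cd3g at 2.32 to 4.00 against 0.350 to 1.16. None of these ranges overlapped. Ptprc, for CD45, carried by all leukocytes, was at 5.10 to 6.20 per Cd3e count in KO + PBS, 0.520 and 0.620 in KO and 3.58 to 22.0 in WT. KO + PBS replicate 4, the library with the most counts of members, had the ratios of its own group.

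**Figure D5:**
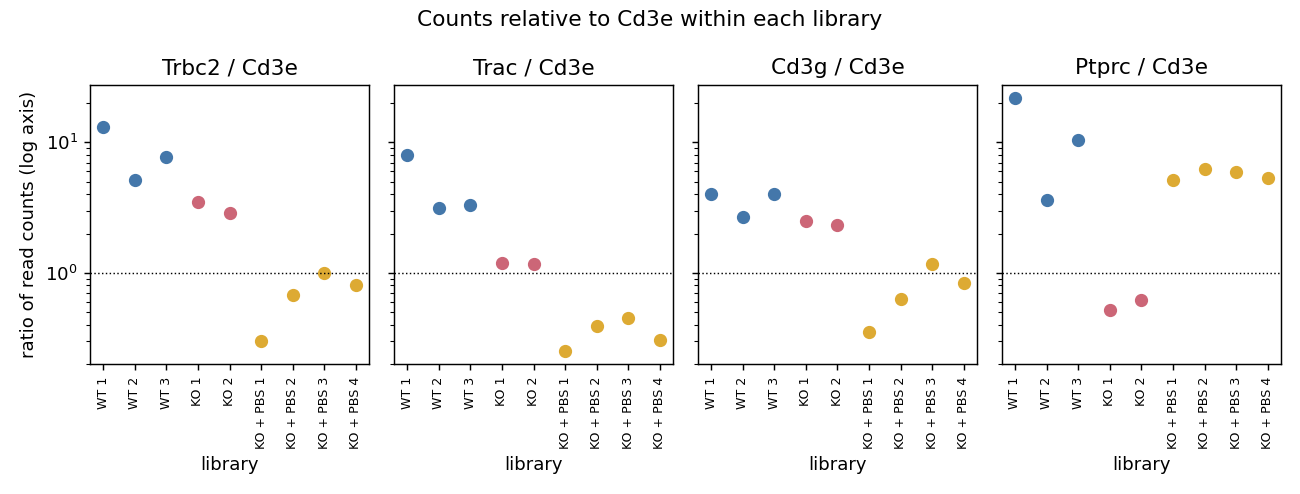
Counts of Trbc2, Trac, Cd3g and Ptprc divided by those of Cd3e in the same library (vertical log axis) for each of the 9 libraries (horizontal axis); the dotted line marks 1. The first 3 ratios lie between 1.18 and 13.0 in the untreated libraries and between 0.250 and 1.16 in KO + PBS, and Ptprc is under 1 in KO alone.

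Cd8a made up 0 to 23.2% of the summed Cd8a and Cd4 counts without treatment and 31.1 to 46.7% in KO + PBS. Per library, with Wilson 95% intervals, the share was 23.2% (16.9 to 30.9) and 15.8% (12.2 to 20.3) in KO, with 46.7% (30.2 to 63.9), 35.1% (26.2 to 45.2), 43.2% (33.7 to 53.2) and 31.1% (27.7 to 34.8) in KO + PBS replicates 1 to 4. The WT shares rest on 13 to 99 counts and were at most 8.08%. Foxp3 made up 32.5% of the summed Foxp3 and Cd4 counts in KO replicate 1 and 14.4% in replicate 2, and 6.15 to 30.4% in KO + PBS, so its share overlapped between the knockout groups. Gzmb against Cd8a varied most within KO + PBS, at 30.0, 2.94, 51.2 and 50.5% of their summed counts. The ratios of Trbc2, Trac and Cd3g to Cd3e and the share of Cd8a did not overlap between the kinds of library. The Foxp3 and Gzmb shares did overlap. Within the untreated libraries, those ratios and the Cd8a share also parted KO from WT. Trac per Cd3e count was 1.18 in both KO libraries and 3.17 to 8 in WT. Trbc2 was at 3.48 and 2.90 against 5.17 to 13.0, and Cd3g at 2.48 and 2.32 against 2.67 to 4.00. The WT ratios rest on 1 to 12 Cd3e counts per library. For the difference between the kinds, a change in the proportions of the cells and a change in how the genes were counted cannot be told apart.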

How the data were processed

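Whole-cornea RNA was sequenced in bulk in 9 libraries. The authors deposited 1 table of unnormalized read counts per gene. The submitters' processing notes name fastp, STAR, featureCounts and the build mm10; no source used here gives versions, annotation or strand setting. Of 34165 rows, 23 read as dates and were left out; they took 0.0318 to 0.140% of the counts in a library.

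The 34 members, the other gene lists, the tests and the alternatives were chosen with earlier results of these data known. The tests were run in edgeR 4.0.16 under R 4.3.3 with limma 3.58.1, after filterByExpr and TMM scaling, by the quasi-likelihood test with robust dispersion and 1 mean per group, and p-values were Benjamini-Hochberg adjusted over all genes tested. An adjusted p under 0.05 is a call, and rose and fell are kept for calls. KO against WT was fitted to the 5 untreated libraries, the comparisons with KO + PBS to all 9. Levels are CPM scaled by TMM factors over the 9 libraries. SE is the fold change over the square root of the test's F. A count of 0 was taken to allow 3 counts.

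All 34 members are described; from each other list, the called genes with the smallest adjusted p, at most 3 per comparison, could be named, and Cxcl9, Fyn, Gzmc, Gzmm and single marker genes were named after their values were seen. Positions are from GENCODE M21 (GRCm38) and promoters from RefSeq (GRCm38.p6). Pairs of libraries of 1 group differed by a chi-square of 18.8 to 306 per degree of freedom, so none was a repeat. The steps were tested on simulated counts. Alternatives were other scalings and filters, DESeq2 1.42.0, other samples in the fit, non-robust dispersion, the replicate number as a block, only the members and those protein-coding genes counted in all libraries, and leaving out each library.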

Additional observations from a re-analysis of the deposited data

Results flagged for a closer look

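For 23 of the 34 members and for their sum, KO + PBS replicate 4 lay so far above the other 3 libraries of its group that the gap to the nearest, as a share of the whole range, passed Dixon's critical value for 4 samples. Chance flags about 1 in 20 groups, and 10.3% of all genes tested had a KO + PBS library this far above the others. In the receptor complex the share was 0.93 for Cd3e, 0.968 for Cd3d, 0.893 for Cd3g, 0.869 for Cd247, 0.867 for Trac, 0.946 for Trbc1 and 0.903 for Trbc2. Among coreceptors and kinases it was 0.918 for Cd4, 0.896 for Cd8a, 0.894 for Cd8b1 and 0.925 for Lck.

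Adhesion and costimulatory receptors passed at 0.952 for Cd2, 0.96 for Cd6, 0.913 for Cd28, 0.957 for Icos and 0.85 for Cd96. The regulatory genes passed at 0.959 for Foxp3, 0.926 for Ctla4 and 0.915 for Tigit. Cytotoxic and type 1 genes passed at 0.895 for Prf1, 0.948 for Nkg7, 0.842 for Ifng and 0.919 for Il2rb. The members summed gave 0.883. Zap70, Lat, Skap1, Prkcq, Cd5, Cd27, Gzma, Gzmb, Klrd1, Ncr1 and Tbx21 did not pass this value. The same library had 131 CPM of the B cell list against 3.07 to 12.5 in the other KO + PBS libraries. What sets it apart was not tested.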

How the results depend on the processing

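No direction turned among the folds compared across alternatives. These were 351 values for Gzma and the called members of KO against WT other than Gzmb. Added to them were 105 for 6 of the 20 called members of KO + PBS against WT, and 18 for Tigit in KO + PBS against KO. Those 6 were among the most steadily called, so they were unlikely to turn. Folds of the other members were not compared. The members' median in KO + PBS against KO did turn, from -1.35 without KO + PBS replicate 4 to 0.63 without KO replicate 1. The 26 members higher in KO than in WT became 15 with a filter of 1 CPM in 2 libraries, which tested only 15 members, 13 with the replicate block, 1 in the fit to all 9 libraries and 14 to 27 with 1 library left out (a lone KO library is assumed to vary like WT); DESeq2 gave 26. Of all genes, 3.78% rose with the block and 14.9% in DESeq2. The block sets aside a library whose replicate number no other fitted library has. That is WT replicate 3 in KO against WT, and KO + PBS replicate 4 in the comparisons with KO + PBS. Its counts are therefore not a check apart from those with that library left out. In KO + PBS against KO, the 1 higher member became 0 with the replicate block and in the fit to these 2 groups, and 0 to 1 with a library left out. The 0 lower members became 9 with the replicate block, where 25.1% of genes fell, and 0 to 13 with a library left out, where 13 is without KO + PBS replicate 4; DESeq2 gave 0, and 0 members were lower at an unadjusted p under 0.05. The 20 members higher in KO + PBS than in WT became 11 to 27 with a library left out, 14 with the block (20.8% of genes) and 16 in DESeq2 (28.5%), which gave no adjusted p for 11 members. The ratio of summed CPM ranged over left-out libraries from 0.373 to 1.21 for KO + PBS over KO and from 2.85 to 8.20 over WT. Upper-quartile scaling moved the median of all genes in KO + PBS against KO from -0.02 to 0.17 and that of the members from -0.14 to 0.07. CPM without scaling factors, added after seeing the data, gave ratios of 7.31, 1.49 and 10.9 for KO over WT, KO + PBS over KO and KO + PBS over WT. The cause of these differences was not tested. Same-numbered libraries of 2 groups correlated at -0.36 to 0.16 in their deviations from the group means. Such deviations cancel within a group, so these values cannot settle whether replicate numbers paired the libraries. With 317 to 938 member counts per WT library, Ifng, with 0 counts in each, cannot be told from 0 there.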

Other observations

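The rearranged V segments of the alpha and beta receptor chains, 125 rows of the table, held 1, 43 and 21 counts in WT, 33 and 56 in KO, with 13, 31, 43 and 183 in KO + PBS. Per 100 counts of Trac, Trbc1 and Trbc2 this was 3.85, 30.3 and 41.2 in WT, 9.65 and 13.4 in KO, with 65.0, 46.3, 66.2 and 43.0 in KO + PBS. The V segments were thus fewer against the constant genes in every untreated library than in any KO + PBS library. Beta V segments alone had 0, 3 and 2 counts in WT, 1 and 5 in KO, with 6, 10, 26 and 135 in KO + PBS.

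Il2, for the growth factor that activated T cells secrete, had 179, 454 and 216 counts in WT, 103 and 313 in KO, with 0, 1, 1 and 1 in KO + PBS. Its level was 5.69 ± 0.141 CPM (SD, n = 3) in WT and 5.69 ± 1.06 (SD, n = 2) in KO, above that of Cd3e in each untreated library, and it did not follow the members. Its values were noticed after the data were seen.

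Immunoglobulin heavy V segments had 4, 9 and 5 counts in WT, 1 and 101 in KO, with 7, 25, 3 and 550 in KO + PBS, so the 2 KO libraries differed for them far more than for the members. Ms4a1, for the B cell protein CD20, had 0 to 2 counts in the untreated libraries, 1, 0 and 8 in KO + PBS replicates 1 to 3 and 143 in replicate 4.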
